A study of Mus musculus with 4 samples.

Results

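DDX5 is an RNA helicase of the DEAD-box family, and the peaks described here are the places inside introns, close to a splice site, where RNA was recovered with an antibody to DDX5. The deposited list held 900 peaks, of which 242 carried the class for introns near a splice site. From these, 28 were removed because they overlapped a small RNA gene on the same strand by at least 1 nt (27 in snoRNA genes and 1 in a scaRNA gene). The remaining 214 peaks (23.8% of all peaks, exact Clopper-Pearson 95% interval 21.0 to 26.7%) lay in 152 of the 459 genes with a peak. The rule used the peaks' annotation and not their enrichment.

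The data are eCLIP, a method in which ultraviolet light links a protein to the RNA it touches, the complexes are pulled down, and the RNA fragments are sequenced. The cells were Th17 cells, T helper cells known for producing IL-17, grown from naive CD4 T cells of wild-type C57BL/6 female mice aged 8 weeks. For 72 h the culture held IL6 and TGFb together with antibodies to the T cell receptor complex and to a costimulatory receptor (anti-CD3 and anti-CD28). The groups were 2 IP libraries, pulled down with the DDX5 antibody, and 2 INPUT libraries of the same cells with no antibody, and the design text names 2 mice of 8 to 10 weeks. Each peak carried a single log2 enrichment of IP over input and a single −log10 p, both given by the submitters in a list that joins the replicates. How the replicates were combined into these values is not stated. No value per library was used, so no difference described here can be set against the spread between replicates, and the sequencing depth behind a peak is unknown. A list of bound sites also gives no check of the cell type: of the genes on a Th17 list (28 genes), 0 carried a peak near a splice site and 3 a peak of any class, and of the marker lists for B and myeloid cells (19 genes) and for cytotoxic and NK cells (12 genes), 0 carried a peak of any class.

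An intron begins at its 5′ splice site, which the U1 small nuclear ribonucleoprotein recognises, and ends at its 3′ splice site, where a pyrimidine-rich stretch and a terminal AG are bound by the U2AF proteins. First introns are usually the longest of a gene, and they begin close to the transcription start, in sequence that is often rich in G and C. DDX5 unwinds RNA duplexes and is known to take part in splicing, transcription and the processing of small RNAs.

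Sequence was at hand only where a RefSeq window around an annotated gene start (250 bases before to 50 after, GRCm38.p6, the mm10 build of the files) reached into a peak. That held for at least 30 nt in 7 peaks of 6 genes, all on the plus strand. The middle of the covered part of each is shown first. Then come the first bases of the introns of Srsf4 and Ubp1, with the first 6 bases in capitals. The 5′ splice sites of these introns lay 223.5 and 129.5 nt from the midpoints of the peaks shown.
Srsf4, peak, chr4:131874070-131874099: ataatggggacggaggcccgggttagactg
Dyrk1a, peak, chr16:94570721-94570750: tgggacccgctgcctcgggccgggccggcg
Ubp1, peak, chr9:113931324-113931353: cgctggggctgtggggcggggcgggcggcg
Ube2d3, first peak, chr3:135439027-135439056: ggggcatgggcgcgtcctcgcgccggagct
Ube2d3, second peak, chr3:135438900-135438929: ggagacgggccggggccggcgcggtgcccg
Lrrc8d, peak, chr5:105700698-105700727: gaagggaggggagccctgcgccccgccctc
Papd5, peak, chr8:88199723-88199752: ccgagggcgggagcgacgccgccggcgccg
Srsf4, intron start, chr4:131873871-131873900: GTGAGGagggcggcggaggggccggccggg
Ubp1, intron start, chr9:113931220-113931249: GTTGGCcggggcgaaggggcgctggagcct
Both introns began with GT, the usual first bases of an intron. The covered parts of the 7 peaks held 71.4 to 89.1% G and C. They could be read only because they lay next to a RefSeq gene start, with midpoints between -212.5 and 37.0 nt relative to it, so they do not stand for the other peaks. In each case the RefSeq start lay inside the intron assigned to the peak. These peaks are thus intronic only in transcripts that begin further upstream.

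The peaks lay mostly on the 5′ splice site side of their introns. The midpoint was nearer the 5′ splice site for 198 of 214 peaks (92.5%, interval 88.1 to 95.7%) and nearer the 3′ splice site for 15 (7.01%, 3.98 to 11.3%). A single peak, in Arid4a, lay at an equal distance of 464.5 nt from both. In short introns the class holds peaks anywhere between the splice sites, so the side was also counted by intron length. In introns of at least 1000 nt, 173 of 181 peaks (95.6%) were on the 5′ side, against 25 of 33 (75.8%) in shorter introns. Intervals on shares cover counting error only and treat peaks as separate, although several peaks often shared a gene or an intron.

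The class is defined by closeness to a splice site, so a short distance is no finding, and the distances are given as a description. The median distance from midpoint to the nearest splice site was 141 nt (quartiles 81.0 and 250 nt, range 23.0 to 532.5 nt). Of the 198 peaks on the 5′ side, 13 had their midpoint 0 to 50 nt into the intron, 57 at 50 to 100 nt, 39 at 100 to 150 nt, 27 at 150 to 200 nt, 29 at 200 to 300 nt, 22 at 300 to 400 nt and 11 further in. Peaks were 71.0 nt wide in the median, and 65 of the 198 had their nearest edge within 50 nt of the splice site. In Luc7l2, whose protein associates with the U1 particle, 1 peak (log2 enrichment 5.25) ran 5 nt across a 5′ splice site into the exon. That intron, of 186 nt, belonged to a transcript annotated as a processed transcript rather than as protein-coding. It was 1 of 9 intron entries listed for the peak. No other peak covered a splice site in the intron assigned to it.

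**Figure D1:**
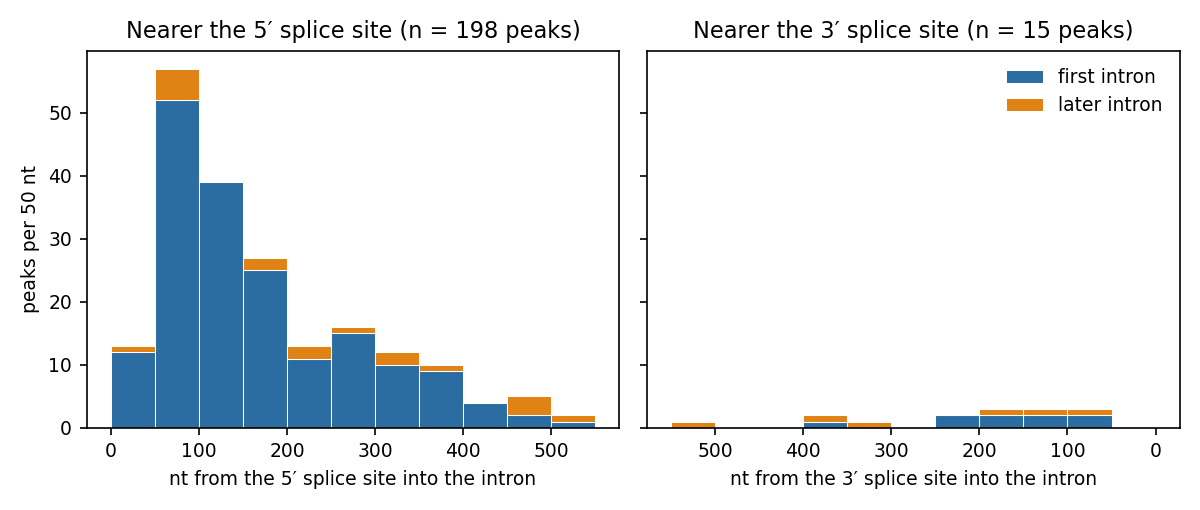
Number of peaks per 50 nt against the distance of the peak midpoint from the 5′ splice site (left, 198 peaks) and from the 3′ splice site (right, 15 peaks), with first introns in blue and later introns in orange. The 5′ side has its highest bar at 50 to 100 nt (57 peaks) and the 3′ side stays low throughout.

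Most of these introns were first introns. Because the list names only the features a peak overlaps, an intron was called first where its 5′ splice site lay within 1500 nt of the start of the transcript. By that measure 190 of 214 peaks (88.8%, interval 83.8 to 92.7%) lay in first introns and 24 (11.2%, 7.32 to 16.2%) in later ones. In 110 peaks the 5′ splice site was within 250 nt of the transcript start, and in 172 within 500 nt. The annotation gave direct evidence for few peaks. A first exon that ends at the intron was listed for 32 of the 214. An intron further upstream was listed for 9, all called later. Such an intron shows only where a peak of the list overlaps it, so its absence does not check the calls of first introns. The share was 80.4% with a limit of 500 nt, and 93.9% where a peak counted as first if any listed transcript made it so. With the 28 peaks in small RNA genes kept, it was 81.4%.

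The median distance from transcript start to peak midpoint was 446 nt, and 182 of 214 peaks (85.0%) lay within 1000 nt of it. Counting each intron once, the 144 first introns with a peak had a median length of 19905.5 nt and the 14 later ones 1385.5 nt. Among peaks of first introns 180 of 190 (94.7%, interval 90.5 to 97.4%) were on the 5′ side, and among peaks of later introns 18 of 24 (75.0%, 53.3 to 90.2%). The later introns were also the shorter ones, and the part of intron length in that difference was not tested.

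The class of peaks deep in introns, treated in the same way, held 257 peaks. Of these, 224 (87.2%, interval 82.4 to 91.0%) lay nearer the 5′ splice site and 199 (77.4%, 71.8 to 82.4%) in first introns. The near class had 92.5% and 88.8%. The intervals treat peaks as separate, so they give no test between the classes. The border between the classes depended on the transcript the submitters named for each peak. Measured in that transcript, near peaks had their closest edge at up to 498 nt, in Med23, and deep peaks began at 382 nt, in Zmynd11. Just inside were Med23 with edges at 498, 486 and 480 nt and Hmga1 at 470 nt, and just outside were Zmynd11, Rasa2 at 383 nt, Calm2 at 403 nt and Il21r at 442 nt. Measured in the nearest of all listed transcripts, 93 of the 257 deep peaks (36.2%) also lay within 498 nt of a splice site, 90 of them on the 5′ side and 89 in first introns. For the near peaks and these 93 together, 307 peaks, the shares were 93.8% on the 5′ side and 90.9% in first introns.

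Across both classes, first introns held 389 peaks, and fewer lay further from the 5′ splice site. In steps of 100 nt the near class gave 64, 66, 28, 19 and 8 peaks over the first 500 nt, and the deep class 28, 19, 12, 13 and 12. Within 500 nt of the 5′ splice site lay 269 of the 389 (69.2%), and within 500 nt of the 3′ splice site 22 (5.66%). Within 2000 nt the counts were 323 and 55.

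**Figure D2:**
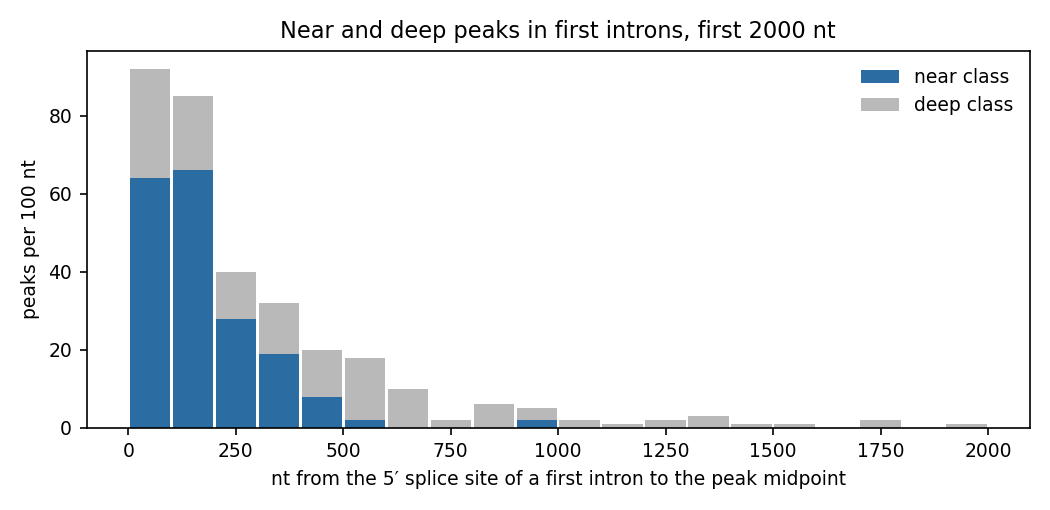
Number of peaks in first introns per 100 nt, against how far the midpoint lies into the intron, over the first 2000 nt, with the near class in blue and the deep class stacked on it in grey. The first 2 bars are the tallest, with 64 and 66 near peaks, and the near class all but ends at 500 nt, where the deep class goes on.

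Enrichment over input overlapped widely between the sides and between first and later introns. The log2 enrichment of the 214 peaks had a median of 5.38 (SD 0.80, range 3.11 to 8.04), beside 5.31 for all 900 peaks and 5.62 (SD 0.93) for the 257 deep peaks. Peaks on the 5′ side had a median of 5.39 (SD 0.77, n = 198) and those on the 3′ side 4.96 (SD 0.81, n = 15), and the 3′ values all lay inside the range of the 5′ values. The difference in medians was 0.42, and in introns of at least 1000 nt it was -0.05. First introns had a median of 5.41 (SD 0.73) and later introns 5.12 (SD 1.19), a difference of 0.29. That difference was 1.20 with the peaks in small RNA genes kept, and 0.06 with first introns limited to 500 nt from the transcript start. In the 4 classes the medians were 5.42 on the 5′ side of first introns (180 peaks), 5.10 on the 5′ side of later introns (18), 4.73 on the 3′ side of first introns (9) and 5.43 on the 3′ side of later introns (6). No test was made, since peaks are not replicates.

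Within the stretch that the class covers on the 5′ side, enrichment varied little with distance from the splice site. On the 5′ side the median log2 enrichment was 5.38 at 0 to 100 nt, 5.37 at 100 to 200 nt, 5.42 at 200 to 300 nt and 5.43 beyond 300 nt. Spearman's rho between distance and enrichment was -0.01 over these 198 peaks, and peaks of a gene shared the same libraries and introns. The −log10 p had a median of 10.9 and reached 78.9, whereas 72 of all 900 peaks stood at the ceiling of 400. A log2 value of 6 or more was reached by 37 of 214 peaks (17.3%) here and 65 of 257 (25.3%) among deep peaks.

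**Figure D3:**
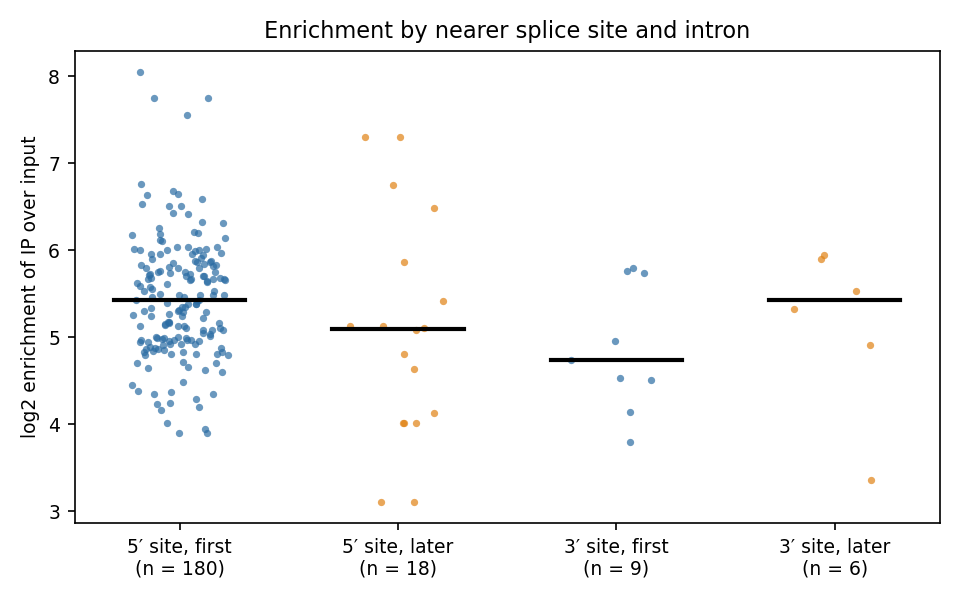
Log2 enrichment of IP over input for each peak, by the nearer splice site and by first or later intron, with a black line at the median of each class. The medians are 5.42, 5.10, 4.73 and 5.43 from left to right, and the 4 classes overlap; the Arid4a peak at an equal distance from both sites is not drawn.

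Of the 152 genes, 109 carried 1 of these peaks, 28 carried 2, and 15 carried 3 or more. Pmepa1, whose membrane protein is induced by TGF-β and dampens that pathway, had the most. Its 5 peaks lay in a first intron of 41626 nt on chromosome 2. From the 5′ splice site inward their midpoints were at 30, 80.0, 135.5, 192.0 and 407.0 nt and their log2 enrichments were 4.81, 6.11, 7.55, 5.63 and 6.59. The highest, chr2:173275927-173275977, corresponded to 188-fold over input and was the third from the splice site.

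Map3k1, a kinase of stress and T cell signalling, and Zeb1, a zinc-finger repressor of transcription, had 4 peaks each, all on the 5′ side of first introns. The Map3k1 values were 4.91, 5.79, 6.51 and 6.68, spread over introns of transcripts with separate starts. In Zeb1 the midpoints lay at 33.5, 84.5, 135.5 and 467.5 nt with values of 5.74, 6.42, 6.64 and 6.51. Rcc2, a protein of the mitotic spindle and chromosomes, also had 4 peaks, with 5.08, 5.13, 5.87 and 6.75. Its intron started 1895 nt into the transcript assigned to it and 963 nt into another, so it counts as later or as first depending on the transcript.

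Srrm2, a large scaffold protein of nuclear speckles, was the only one of the 5 genes with at least 4 peaks to carry the larger part of them on the 3′ side of a later intron. A peak of 4.96 lay on the 5′ side of a first intron, and peaks of 5.90, 5.95 and 5.53 lay 532.5, 167.5 and 81.0 nt from the 3′ splice site of an intron of 1090 nt. The first of these was nearly in the middle of the intron, 557.5 nt from its 5′ splice site. It also overlapped 35.0 nt of the annotated hairpin of the microRNA Mir5125, which is 79.0 nt long.

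Genes with 3 peaks differed in where the highest one lay. Chd7, a chromatin remodeller, had 5.97, 6.17 and 5.69, and Ino80d, a subunit of the INO80 remodelling complex, had 5.71, 4.97 and 5.80. Tab2, an adaptor of the TAK1 kinase, had 5.42 between peaks of 4.23 and 4.17. Eif4a1, the DEAD-box helicase of translation initiation, had 5.94 and 6.00 on the 5′ side and 5.74 on the 3′ side of introns whose borders differ between its transcripts. Its peaks of 6.00 and 5.74 were neighbours. When peaks within 50 nt were joined, they formed a single site nearer the 5′ splice site. Tead1, a transcription factor of the Hippo pathway, had 3 abutting pieces of 8 nt with the same value of 5.96.

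**Figure D4:**
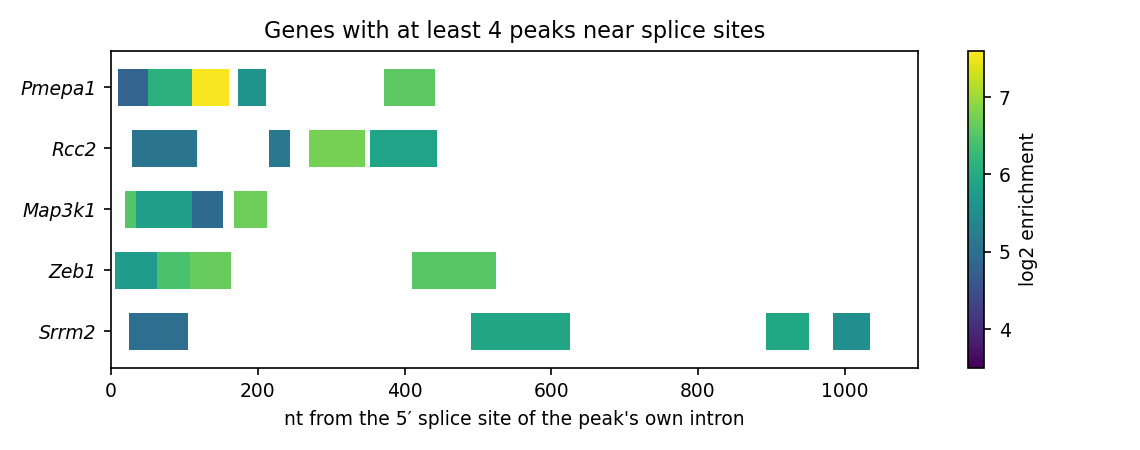
Position of each peak, as nt from the 5′ splice site of its own intron, for the 5 genes with at least 4 peaks, coloured by log2 enrichment. Peaks of Pmepa1 and Zeb1 abut near the splice site, 3 peaks of Srrm2 lie far from it, and bars of a gene can overlap where its peaks lie in introns of different transcripts.

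Some neighbouring peaks were pieces of a single stretch. In 23 pairs the peaks abutted, and 12 peaks of 5 genes (Cfap97, Gm17018, Tead1, Med23 and Uhrf1bp1l) repeated the value of another peak of the gene beside them. Joining peaks within 50 nt of each other gave 169 sites.

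The highest log2 enrichment, 8.04, was in Arid4a, which encodes a chromatin protein that binds the retinoblastoma protein. It was carried by 2 abutting pieces, chr12:71016599-71016618 and chr12:71016619-71016633, in the middle of an intron of 929 nt, and corresponded to 264-fold over input. Next were Cfap97, a protein linked to cilia, with 7.75 in pieces of 20 and 6 nt centred 23.0 and 36.0 nt into a first intron, Pmepa1, and the predicted gene Gm17018 with 7.30. Eif4e, the cap-binding translation factor, followed with 6.76 at 337.5 nt into its first intron. Anp32a, a nuclear phosphoprotein that binds histones, had 6.63, Srsf4, an SR splicing factor, had 6.53, and Amd1, an enzyme of polyamine synthesis, had 6.43. Those last 4 genes each had their highest peak 223.5 to 337.5 nt into a first intron. Very short peaks were few: 15 of the 214 were at most 25 nt wide.

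The 15 peaks on the 3′ side came from 12 genes. With peaks within 50 nt joined, the sites that held the Eif4a1 and Eif4g3 peaks were nearer the 5′ splice site. In first introns these were Smc4, a condensin subunit (5.80), Ptma, which encodes prothymosin alpha (5.76), Eif4a1 (5.74), Ubp1, a transcription factor (4.96 and 3.80), Ccr7, a chemokine receptor of naive T cells (4.73), H2afz, a histone variant (4.53), Papd5, a poly(A) polymerase (4.51), and Eif4g3, a translation scaffold (4.14). In later introns they were Srrm2, Snrnp70 (5.33), Ctla4, an inhibitory receptor (4.92), and Il2rb, a chain of the IL-2 receptor (3.37). Counting each intron once, the 12 introns with a peak on the 3′ side had a median length of 1037.5 nt, against 19324.5 nt for the 148 with a peak on the 5′ side. Peaks on either side of the middle of 1 short intron were found in H2afz, in 436 nt (5.08 on the 5′ side and 4.53 on the 3′ side), and in Ubp1, in 309 nt (5.67, then 4.96 and 3.80, in 3 abutting peaks). As described above, a RefSeq gene start lay inside the introns assigned in Ubp1 and Papd5. The calls of side in these genes thus hold only in transcripts that begin further upstream.

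On the 5′ side of later introns, the highest were Gm17018 (7.30), Rcc2 (6.75) and Hdac7, a histone deacetylase of T cells (6.49, with an abutting peak of 4.81). Below them came Bsg, the surface protein basigin (5.42), Malt1, a protease of antigen receptor signalling (5.13), Zfp791, a zinc-finger gene (5.11), Jak3, a kinase of cytokine receptors (4.63), and Rpl7a, a ribosomal protein (4.13). The Zfp791 peak also overlapped an annotated microRNA gene, Gm23388. Of the 24 later peaks, 11 were in a first intron of another listed transcript: 4 in Rcc2, 3 in Med23 and 1 each in Bsg, Rpl7a, Ctla4 and Snrnp70. The later introns of Gm17018, Srrm2, Hdac7, Malt1, Zfp791, Jak3, Il2rb and Uhrf1bp1l were later in every listed transcript.

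Genes of RNA processing were among those with these peaks. For scale, of all 459 genes with a peak 152 carried one near a splice site. Of the 76 genes with a peak over all lists used here, 39 did. The counts per list are small and were not tested against these shares. Of 32 SR and related splicing factors 6 carried one, and those 6 were all of the list with a peak of any class. After Srsf4 (6.53) and Srrm2 (5.95) came Luc7l2 (5.25), Bclaf1 (4.83), Tra2a, a regulator of alternative exons (4.39), and Srsf6 (4.02). Of 42 hnRNP and related RNA-binding proteins 5 carried one and 10 a peak of any class: Hnrnpk (6.20), Hnrnpa3 (5.85), Hnrnpu (5.76), Hnrnph3 (5.70) and Sfpq (5.63). Of 37 core spliceosome genes 3 carried a peak of any class. Only Snrnp70, the U1 subunit that helps bind the 5′ splice site, carried one near a splice site. Eif4a1 was the only gene of 29 DEAD-box and related helicases, of which 3 carried a peak of any class. Translation factors gave 5 of 32, with Eif4e (6.76), Eif4a1 (6.00), Eif4g2 (5.49), Eef1a1 (5.30) and Eif4g3 (4.99), and 9 carried a peak of any class.

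Of the 45 genes listed for T cell identity or signalling from the antigen receptor, 8 carried a peak, and 11 a peak of any class. Beside Map3k1 and Zeb1 these included Bcl11b, a factor that holds T cell identity (5.81), and Bach2, a repressor of effector differentiation (5.71). Of 36 cytokine receptor and JAK-STAT genes 7 carried one, with Il17ra, a chain of the IL-17 receptor (5.40), Jak1 (5.0), Il4ra (4.92) and Ptpn2, a phosphatase acting on JAK and STAT proteins (4.65) highest. The 4 of 21 genes of TGF-β signalling were Pmepa1 (7.55), Zeb1 (6.64), Ski (5.91) and Skil (4.87), the last 2 being repressors of SMAD proteins. Chromatin regulators gave 3 of 42, with Hdac7 (6.49) and Chd7 (6.17) highest. Peaks of any class were carried by 10 cytokine receptor and JAK-STAT genes, 6 genes of TGF-β signalling and 7 chromatin regulators.

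The remaining lists held few. Foxo1 (4.80), a transcription factor of T cell quiescence, was the only gene of the 29 for mTOR, MYC and metabolism. Actb (4.85), cytoplasmic actin, was the only gene of 25 for cytoskeleton and adhesion, and 0 of 28 cell cycle genes carried a peak near a splice site. In that order, 5, 4 and 3 genes of these lists carried a peak of any class. In all 39 of 447 listed genes carried one and 76 a peak of any class, and the median of their highest log2 enrichment was 5.33, beside 5.42 for all 152 genes. These counts describe the lists, with no measure of how strongly each gene was expressed.

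For 108 of the 152 genes there was no other peak in the list. The other 44 genes also had peaks deep in introns (26 genes), in 5′ untranslated regions (17), in coding sequence (12) or in 3′ untranslated regions (2), or near a splice site but in a small RNA gene (3), and a gene can count more than once. Within the near class, 22 peaks overlapped an exon of another listed transcript, and for 17 of these it was a transcript annotated as a retained intron. Those 17 lay in 13 genes, among them Srrm2, Eif4a1, Snrnp70, H2afz, Tra2a and Srsf6. For such peaks, spliced RNA of the other transcript and intron RNA cannot be told apart.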

How the data were processed

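Per the labels and the deposited settings of the processing run, eCLIP reads of 2 IP and 2 INPUT libraries carried a random barcode of 10 nt, and each IP was normalised to its own input before the replicates were joined by IDR (irreproducible discovery rate). Among the tools, STAR 2.4.0i, SAMtools 1.4.1 and cutadapt 1.9.1 come from the submitters' processing notes, as does the mm10 build. The authors deposited 1 log2 fold enrichment and 1 −log10 p for each peak, with settings of 3 for both minima. Not given in the sources used here are the peak caller, the IDR threshold and the annotation release.

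From the list, peaks were assigned with Python 3.11.15, pandas 2.3.3, NumPy 2.4.6 and SciPy 1.17.1 to the intron with the nearest splice site over all transcripts listed for them, from the midpoint. Figures were drawn with matplotlib 3.10.9. Starts were read as counted from 0, and positions are printed counted from 1. The assignment was run on simulated peaks with 1 transcript and 1 intron each, and with no start close to the 1500 nt limit. That checked the code only, and not the choice among several transcripts or the limit itself. Genes were named by fixed ranks: the 12 with most peaks, the 12 with the highest enrichment, up to 4 of each gene list, and 8 of each class of side and intron. Further genes of a list beyond 4, and genes at the border of the class or with repeated values or a retained intron, were named after their values were seen. Some genes within these ranks are not reported here. The members and gene lists were chosen with earlier results of these data known, and the 1500 nt limit for first introns after seeing the data. RefSeq promoter windows matched 120 of the 152 genes (78.9%), under 80%, so a comparison of their base content is void.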

Additional observations from a re-analysis of the deposited data

How the results depend on the processing

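Of 61 alternative values, 56 moved by less than the error of the reported value (the counting interval of a share or median, or, for a difference, the intervals of both medians combined; counts within 1.5 times). The exceptions were the share in first introns, which was 81.4% with peaks in small RNA genes kept, 80.4% with a limit of 500 nt and 93.9% by any listed transcript; the median distance, which was 100 nt from the nearest edge; and the first minus later difference, which was 1.20 with peaks in small RNA genes kept. That difference was 0.06 with a limit of 500 nt. The alternatives' own construction adds or moves those peaks. The 56 are no measure of robustness, because some of these values could not move. Asking for a larger overlap before removing a peak in a small RNA gene gave the same 214 peaks and changed no value. The peak count could reach at most 242, inside its limit of 321. The errors of the differences were wide, so a change of sign still counted among the 56. They ran from -0.22 to 1.07 for 5′ minus 3′ and from -0.59 to 1.17 for first minus later. The 5′ minus 3′ difference in median log2 enrichment changed sign, to -0.05, in introns of at least 1000 nt, and otherwise ranged from 0.08 (longest listed transcript) to 0.82 (small RNA peaks kept), so its size rests on these choices. The limits on first introns, the length limit, the any-transcript rule and the named-transcript rule were added after seeing the data. No paired analysis was possible because the list holds no values per sample, and leaving out a replicate could not be run for the same reason. Sequence words and base content of all peaks were not analysed here, since they need the genome. Whether the replicates came from separate mice is not said in the sample labels.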
